A study of Mus musculus with 32 samples.

Results

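The results given here are about 9 repressor genes, Trim28, Setdb1, Kdm1a, Chaf1a, Chaf1b, Ehmt1, Ehmt2, Rif1 and Zmym2. They were chosen by name, as H3K9, CAF-1 and co-repressor factors known to silence Dux or the retrotransposon MERVL in ES cells, and each of the 9 matched 1 of the 55385 genes listed for every RNA library. The samples were total RNA-seq libraries of mouse embryos from in vitro fertilization of wild-type B6D2F1/J oocytes with B6D2F1/J sperm, both from animals 6 to 8 weeks old. In the first experiment, embryos received either the solvent DMSO or A-485 at 10 µM, which blocks the acetyltransferases CBP and p300, and were collected as zygotes and at the early and late 2-cell stages. The drug was present from 4 to 20 h post in vitro fertilization (hpi), so that the late 2-cell embryos had been washed and cultured without it before collection. In the second experiment, late 2-cell embryos had been kept from 8 to 28 hpi in 50 nM TSA, an inhibitor of histone deacetylases, or in DMSO. Each of the 8 groups held 2 libraries, and each late 2-cell DMSO group was taken as the control of the inhibitor group whose titles share its wording. The titles of the early 2-cell libraries are written like those of the TSA experiment. Those of the zygote and late 2-cell libraries of the A-485 experiment have another form. Whether these sets were made together is not stated, so comparisons between stages within the A-485 experiment cannot tell stage apart from set. Open chromatin was measured by ATAC-seq at the late 1-cell and early 2-cell stages after A-485 or DMSO, with the peaks of both replicates pooled into 1 list per group. The sources used here do not say how many embryos a library held or whether the libraries of a group came from separate cultures, so p-values measure only the spread between these libraries, which may be technical.

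As background, KRAB zinc finger proteins bind DNA and recruit TRIM28, a scaffold that brings in SETDB1, a histone methyltransferase that trimethylates H3K9. EHMT1 (GLP) and EHMT2 (G9a) form a heteromer that monomethylates and dimethylates the same residue. KDM1A (LSD1) is a histone demethylase of the CoREST co-repressor, and ZMYM2 is a zinc finger protein found with it. CHAF1A and CHAF1B are subunits of the chromatin assembly factor CAF-1, which deposits histones H3 and H4 behind the replication fork, and RIF1 controls replication timing and DNA repair. In ES cells, loss of these factors raises the transcription factor Dux, MERVL elements and genes normally used by 2-cell embryos, which is why they are read here beside those genes.

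In the annotation of GRCm38 the members are protein-coding genes on 7 chromosomes, Trim28 (ENSMUSG00000005566) at chr7:12999114-13031035, Setdb1 (ENSMUSG00000015697) at chr3:95323525-95357202, Kdm1a (ENSMUSG00000036940) at chr4:136550540-136602723, Chaf1a (ENSMUSG00000002835) at chr17:56040439-56072289, Chaf1b (ENSMUSG00000022945) at chr16:93883901-93906115, Ehmt1 (ENSMUSG00000036893) at chr2:24789928-24919614, Ehmt2 (ENSMUSG00000013787) at chr17:34898469-34914052, Rif1 (ENSMUSG00000036202) at chr2:52072832-52122383 and Zmym2 (ENSMUSG00000021945) at chr14:56886653-56962701.

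The promoters of these genes were CpG-rich. RefSeq promoter windows of GRCm38.p6, which cover 250 bases before and 50 bases after a start, were found for 8 of the 9 members and none for Rif1. Their GC content lay between 55.3 and 82.7%, against a median of 52.7% over all 32851 mouse windows, and their observed over expected CpG ratio between 0.7 and 1.08, against a median of 0.38. The 5 windows below are shown as examples, and no RNA or peak result was tested against their sequence. They are those of Trim28, with the largest fall after A-485, of its partner Setdb1, of both CAF-1 subunits, whose responses differed, and of Kdm1a, whose window lacked a GC box. Capitals mark 4 motifs searched on both strands, the GC box (GGGCGG), the CCAAT box (CCAAT), the E-box (CACGTG) and the ETS site (CCGGAAG).
Trim28, chr7:13023902-13024201, plus strand: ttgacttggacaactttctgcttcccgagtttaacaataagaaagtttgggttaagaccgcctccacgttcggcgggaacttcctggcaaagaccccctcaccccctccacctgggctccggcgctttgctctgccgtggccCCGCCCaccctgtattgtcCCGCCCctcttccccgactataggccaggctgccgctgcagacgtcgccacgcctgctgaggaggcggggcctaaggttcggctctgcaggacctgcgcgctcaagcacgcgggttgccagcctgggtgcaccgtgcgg
Setdb1, chr3:95357153-95357452, minus strand: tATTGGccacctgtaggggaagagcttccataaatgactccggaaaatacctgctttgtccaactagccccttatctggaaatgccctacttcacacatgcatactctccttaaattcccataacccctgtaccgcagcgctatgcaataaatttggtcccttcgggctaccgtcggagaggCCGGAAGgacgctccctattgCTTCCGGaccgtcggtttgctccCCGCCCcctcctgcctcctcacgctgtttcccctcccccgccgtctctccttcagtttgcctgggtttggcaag
Kdm1a, chr4:136602674-136602973, minus strand: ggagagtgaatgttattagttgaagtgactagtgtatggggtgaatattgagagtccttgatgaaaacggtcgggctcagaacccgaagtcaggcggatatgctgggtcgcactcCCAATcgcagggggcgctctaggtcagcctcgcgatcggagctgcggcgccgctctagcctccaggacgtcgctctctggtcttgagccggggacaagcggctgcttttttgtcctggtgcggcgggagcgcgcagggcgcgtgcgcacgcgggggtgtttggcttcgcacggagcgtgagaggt
Chaf1a, chr17:56040166-56040465, plus strand: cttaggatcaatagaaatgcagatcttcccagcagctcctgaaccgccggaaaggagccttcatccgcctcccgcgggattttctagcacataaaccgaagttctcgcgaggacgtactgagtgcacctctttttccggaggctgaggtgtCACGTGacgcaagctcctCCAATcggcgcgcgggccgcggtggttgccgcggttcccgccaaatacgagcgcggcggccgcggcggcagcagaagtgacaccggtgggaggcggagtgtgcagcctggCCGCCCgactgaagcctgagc
Chaf1b, chr16:93883651-93883950, plus strand: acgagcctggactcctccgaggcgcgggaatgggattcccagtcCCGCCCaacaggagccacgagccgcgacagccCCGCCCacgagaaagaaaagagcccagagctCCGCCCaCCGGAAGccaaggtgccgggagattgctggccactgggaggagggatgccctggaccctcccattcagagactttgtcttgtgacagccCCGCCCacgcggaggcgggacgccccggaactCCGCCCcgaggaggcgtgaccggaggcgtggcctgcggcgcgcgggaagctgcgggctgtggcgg

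The GC box was found in 7 of the 8 members with a window and in 35.7% of all windows. The CCAAT box was found in 4 members (37.4% of all windows), the E-box in Chaf1a and Ehmt2 (7.15%) and the ETS site in Setdb1 and Chaf1b (8.86%). Searches for E2F (TTTGGCGC or TTTCCCGC), NRF1 (GCGCATGCG), YY1 (AAGATGGCG) and CRE (TGACGTCA) sites gave no match in the 8 members' windows, and these letters are in 0.514, 1.07, 1.75, 1.4 and 1.79% of all windows. A member was counted if any of its windows held the motif, while the shares are per window and not matched for GC content. A match is only a run of letters and was not tested as a binding site.

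The libraries held between 13206163 and 32585987 expected counts. The oocyte and early embryo markers were all 8 above 1 FPKM in every group, with summed levels between 576.0 and 2329.19 FPKM. The cumulus cell, fibroblast and sperm lists summed to at most 6.59, 16.41 and 18.87 FPKM in any library, and the erythroid list to at most 46.75. Some of these FPKM sums differed with treatment. The fibroblast list summed to between 14.22 and 16.41 FPKM in late 2-cell A-485 embryos, against at most 0.64 in their controls, with 5 of its 6 genes under 1 FPKM and 3 at 0, and to between 5.51 and 8.07 FPKM in TSA embryos, against at most 1.73. The erythroid list summed to between 44.62 and 46.75 FPKM in TSA embryos, against at most 1.36 in their controls, with 3 of its 6 genes at 0. The oocyte and early embryo list summed to between 1417.85 and 1422.09 FPKM in late 2-cell A-485 embryos, against between 749.33 and 806.91 FPKM in their controls, and to between 744.11 and 775.75 FPKM in TSA embryos, against between 576.0 and 592.37 FPKM. From counts, however, the median log2 fold change of its 8 genes was 0.36 after A-485 and -0.13 after TSA. At an edgeR adjusted p under 0.05, 3 were higher and 1 lower after A-485, and 1 higher and 1 lower after TSA. Reads of the 13 mitochondrially encoded protein genes made up between 5.35 and 5.43% of counts in late 2-cell A-485 libraries, between 3.66 and 3.72% in TSA libraries and between 2.35 and 2.71% in both late 2-cell control groups. The part of these differences in the results below was not tested. Values were scaled to each library, so the amount of RNA per embryo was not measured.

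Levels are given as FPKM (fragments per kilobase of effective length and scaled for library size), which allows genes to be compared within a library. Fold changes come from counts scaled by TMM. The 2 scales can differ, since RSEM's effective length of a gene varied between libraries by up to 2.16 times for Trim28 and 5.94 times for Ehmt2, and the FPKM values of a library summed to between 799722 and 2045551. A gene passed at an edgeR adjusted p under 0.05, and was called if it also changed at least 2-fold and had a mean of at least 1 FPKM in either group.

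In control zygotes the members spanned a wide range. Rif1 led with 226.05 and 231.89 FPKM, followed by Chaf1a with 109.95 and 155.1 FPKM and Setdb1 with 108.68 and 105.14 FPKM. The values of Trim28 (65.93 and 46.25 FPKM) spanned those of Kdm1a (60.5 and 64.07 FPKM) and Ehmt1 (55.07 and 55.51 FPKM), so that the order of Trim28 among these is not set. Zmym2 followed with 30.45 and 35.89 FPKM, Chaf1b with 3.56 and 3.99 FPKM, and Ehmt2 was lowest with 0.62 and 0.26 FPKM, from 29 and 13 counts. Rif1 was the highest and Ehmt2 the lowest member in each of the 8 groups. The partners in each heteromer were thus far apart in the zygote. Chaf1a stood at 30.9 and 38.9 times the FPKM of Chaf1b, and Ehmt1 at 88.8 and 213.0 times that of Ehmt2, while Trim28 stood at 0.607 and 0.44 times the FPKM of Setdb1. Rbbp4, the gene of the third CAF-1 subunit, had 21.07 and 16.08 FPKM.

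**Figure D1:**
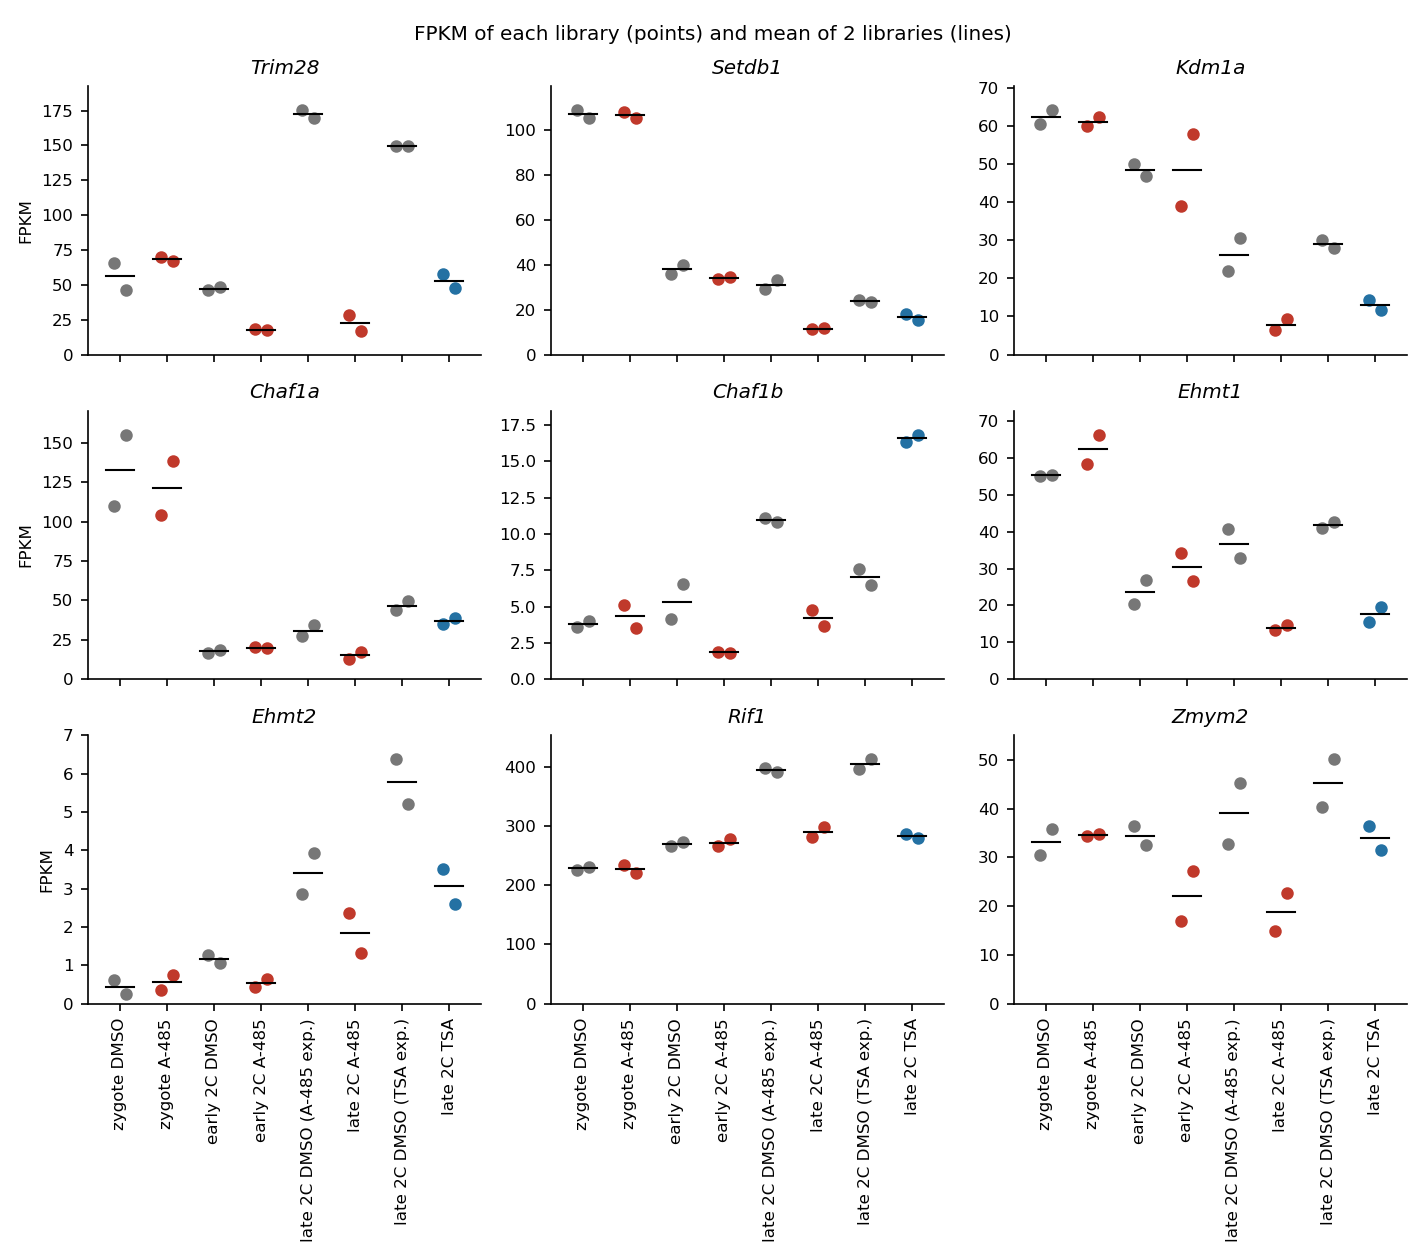
FPKM of the 9 genes in each library, with 1 panel per gene, each with its own axis from 0, and the 8 groups along x. Points are libraries (gray for DMSO, red for A-485, blue for TSA), lines are means of 2 libraries, and Trim28 rises from 47.3 FPKM in early 2-cell to 172.5 FPKM in late 2-cell controls but stays at 22.6 FPKM after A-485.

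The first comparison asks how the repressor transcripts changed in control embryos from the zygote to the early 2-cell stage. Chaf1a, Setdb1 and Ehmt1 fell and Rif1 rose, while the other 5 members did not pass. Of 20106 genes tested, 22.7% passed as higher, 23.4% passed as lower and 26.2% were called, beside 1, 3 and 3 of the 9 members. The median log2 fold change of the members was -0.09, and that of all expressed genes -0.12.

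Chaf1a, the large CAF-1 subunit, fell from 109.95 and 155.1 to 16.62 and 18.72 FPKM. The groups lay far apart, and the fold change from counts was 4.72 (log2 -2.24 ± 0.09 SE, edgeR adjusted p = 7.19e-10). The FPKM ratio was larger, at 7.5, with a longer effective length in the 2-cell libraries. Setdb1 fell from 108.68 and 105.14 to 35.73 and 40.01 FPKM, a 2.64-fold change (log2 -1.40 ± 0.08 SE, edgeR adjusted p = 6.45e-09). Ehmt1 fell from 55.07 and 55.51 to 20.45 and 26.97 FPKM, a 2.17-fold change (log2 -1.12 ± 0.14 SE, edgeR adjusted p = 1.75e-05). All 3 groups of values were separated without overlap. Rif1 went the other way, from 226.05 and 231.89 to 266.31 and 273.21 FPKM, with a log2 fold change of 0.33 ± 0.06 SE (edgeR adjusted p = 0.000459), but scaling to the mitochondrially encoded genes turned this to -1.003.

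Ehmt2 stood at 1.26 and 1.07 FPKM in early 2-cell controls, from 47 and 39 counts, and the log2 difference from the zygote was 1.58 ± 0.61 SE (edgeR adjusted p = 0.0514). It passed without the first zygote DMSO library (log2 2.21, edgeR adjusted p = 0.0472), and the estimates without single libraries ran from 1.12 to 2.21. Trim28 (log2 -0.12), Kdm1a (-0.07), Zmym2 (-0.09) and Chaf1b (0.27) did not pass in either direction. With Chaf1a low and Chaf1b level, the Chaf1a to Chaf1b ratio of FPKM came to 4.04 and 2.86. When counts were scaled to mitochondrially encoded genes, the median of all expressed genes moved to -1.45 and 8 of the 9 members passed, all lower.

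The second comparison, from early to late 2-cell controls, spans the major activation of the embryonic genome. Here Trim28, Ehmt2, Chaf1b, Ehmt1, Chaf1a and Rif1 rose, Kdm1a fell, and Setdb1 and Zmym2 did not pass. Of 20326 genes tested, 20.6% passed as higher, 15.6% passed as lower and 24.8% were called, beside 6, 1 and 4 of the members. The median log2 fold change of the members was 0.68, against 0.03 over all expressed genes.

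Trim28 stood at 46.27 and 48.36 FPKM in early and at 175.1 and 169.89 FPKM in late 2-cell controls. This 3.64-fold rise (log2 1.86 ± 0.13 SE, edgeR adjusted p = 5.25e-07) made it the second highest member, and brought Trim28 to 6.01 and 5.14 times the FPKM of Setdb1. Ehmt2 rose from 1.26 and 1.07 to 2.87 and 3.93 FPKM (log2 1.89 ± 0.40 SE, edgeR adjusted p = 0.00235), and remained the lowest member. Chaf1b rose from 4.11 and 6.55 to 11.13 and 10.81 FPKM (log2 1.01 ± 0.26 SE, edgeR adjusted p = 0.009). Ehmt1 (log2 0.75), Chaf1a (0.68) and Rif1 (0.51) rose by less than 2-fold. In both heteromers the less abundant subunit thus had the larger estimate, though the difference between subunits was not tested.

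Kdm1a, the demethylase, fell from 49.91 and 46.95 to 21.83 and 30.46 FPKM (log2 -1.05 ± 0.15 SE, edgeR adjusted p = 0.000133). Setdb1 read 29.15 and 33.06 FPKM and did not pass (log2 -0.21 ± 0.11 SE, edgeR adjusted p = 0.187). Zmym2 had 32.77 and 45.22 FPKM, and its log2 difference of 0.38 ± 0.14 SE missed the threshold (edgeR adjusted p = 0.0573) but passed without the first early 2-cell DMSO library (0.51, edgeR adjusted p = 0.0371) or the first late one (0.48, edgeR adjusted p = 0.0282). Without the first late 2-cell DMSO library, only 2 members were called, with Chaf1b at a log2 fold change of 0.92 and Kdm1a at -0.88. In another run the late 2-cell controls came from the TSA experiment, whose titles are written like those of the early 2-cell libraries. There all 9 members passed, with Setdb1 lower (log2 -0.58, edgeR adjusted p = 0.000173) and Zmym2 higher (0.51, edgeR adjusted p = 0.00394). That run is matched for title form, but its late controls had another culture window in DMSO. The control groups of both experiments were also compared directly, since they are the base of what follows. None of the 9 members passed between them (edgeR), where 2.36% of 20647 genes passed and 2777 had an unadjusted p under 0.05. Setdb1 came nearest, with 24.07 and 23.59 FPKM in the TSA experiment (log2 -0.41 ± 0.10 SE, edgeR adjusted p = 0.0662). It passed with DESeq2 (adjusted p = 0.0107) and without the first (edgeR adjusted p = 0.00838) or the second (0.0303) late 2-cell control library of the A-485 experiment. Setdb1, Chaf1a and Ehmt1, 3 of the 9, had an unadjusted p under 0.05.

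**Figure D2:**
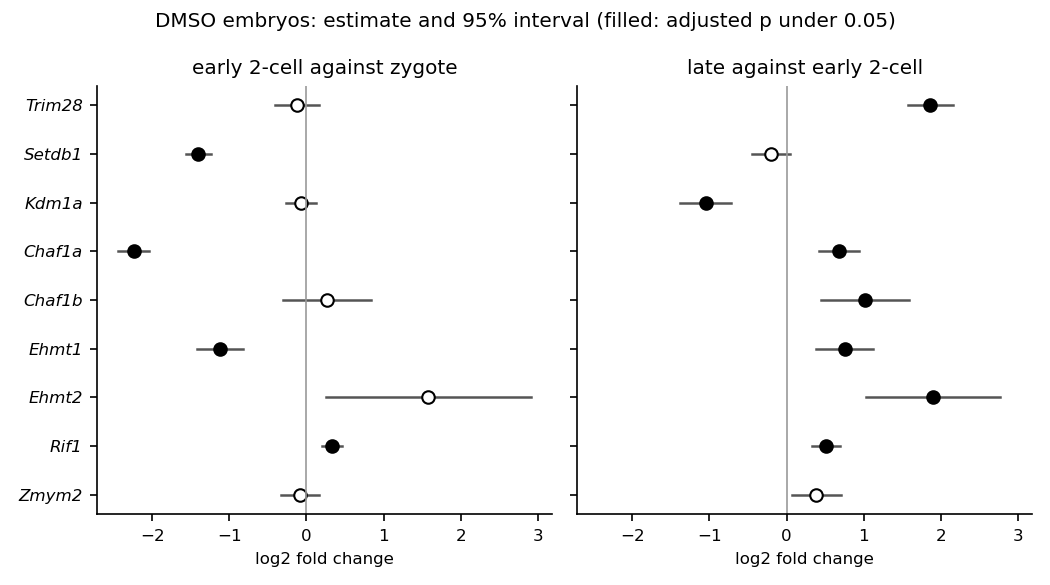
Log2 fold change of the 9 genes in DMSO embryos, from edgeR on counts, for early 2-cell against zygote and late against early 2-cell. Points are estimates over 2 libraries a group, bars are 95% intervals, filled points passed at an adjusted p under 0.05, and Trim28 moves from -0.12 to 1.86.

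In zygotes the question was whether the repressor transcripts responded while A-485 was present. No member passed (edgeR), and 1 of the 9 had an unadjusted p under 0.05. Of 18258 genes, 0.011% passed as higher, 0.0876% passed as lower and 0.0712% were called, while 1073 had an unadjusted p under 0.05. Trim28 had 70.1 and 66.79 FPKM after A-485, against 65.93 and 46.25 FPKM in DMSO, and its log2 difference of 0.35 ± 0.10 SE had an edgeR adjusted p of 0.719. Without the first zygote DMSO library it passed as higher (log2 0.51, edgeR adjusted p = 0.0369), and the estimates without single libraries ran from 0.21 to 0.51. For 7 of the other members the 95% interval of the difference stayed within -0.35 and 0.61 on the log2 scale. For Ehmt2, with between 7 and 56 counts per zygote library, it ran from -1.31 to 2.31, so that a change of 2-fold was not detectable at this depth.

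At the early 2-cell stage, A-485 lowered 3 members and raised none. Trim28, Chaf1b and Zmym2 fell, and the other 6 did not pass. Of 20872 genes tested, 1.77% passed as higher, 10.2% passed as lower and 8.3% were called, beside 0, 3 and 2 of the 9 members. The median log2 fold change was -0.18 over the members and -0.01 over all expressed genes.

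Trim28 read 46.27 and 48.36 FPKM in DMSO and 17.98 and 17.5 FPKM after A-485. The groups were well apart, and the fall was 2.66-fold (log2 -1.41 ± 0.14 SE, edgeR adjusted p = 1.89e-05). Chaf1b read 4.11 and 6.55 FPKM in DMSO and 1.89 and 1.82 FPKM after A-485, a 2.21-fold fall (log2 -1.15 ± 0.31 SE, edgeR adjusted p = 0.0305). It rested on between 72 and 184 counts per library and did not pass without the second A-485 library (adjusted p = 0.113, edgeR), without the second DMSO library (0.152) or with DESeq2 (0.0534). Its larger partner Chaf1a stood at 16.62 and 18.72 FPKM in DMSO and 20.32 and 19.63 FPKM after A-485 (log2 0.16 ± 0.09 SE), so that the Chaf1a to Chaf1b ratio of FPKM was 4.04 and 2.86 in DMSO and 10.8 in both A-485 libraries.

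Zmym2 fell from 36.38 and 32.56 to 16.89 and 27.18 FPKM (log2 -0.49 ± 0.13 SE, edgeR adjusted p = 0.024). The A-485 libraries were far apart by FPKM, with effective lengths of 2548 and 1868 bases, and held 963.7 and 1211.7 counts of this gene. Zmym2 did not pass without the first A-485 library (log2 -0.399) or the first DMSO library (log2 -0.368). Setdb1 (log2 -0.18, edgeR adjusted p = 0.214) and Ehmt2 (-0.33, 95% interval -1.47 to 0.80) did not pass. Neither did Ehmt1 (0.28, -0.05 to 0.62), which passed as higher without the second DMSO library (log2 0.52, edgeR adjusted p = 0.0377), with estimates from 0.07 to 0.52 without single libraries. Rif1 (0.03, -0.08 to 0.15) and Kdm1a (0.04, -0.15 to 0.24) had intervals that held 0 and no change of 2-fold.

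At the late 2-cell stage, after the drug had been washed out, the repressors of the A-485 embryos were lower than in the controls, which are the late 2-cell libraries of the second comparison. A fall here means lower than in these controls, and change between stages within A-485 embryos was not tested. From early to late 2-cell A-485 embryos, mean FPKM went from 17.74 to 22.61 for Trim28 but from 48.37 to 7.84 for Kdm1a. A fall was found for 8 members, of which 7 were called, while Ehmt2 missed the threshold. Of 22822 genes, 17.0% passed as higher, 20.4% passed as lower and 27.3% were called, beside 0, 8 and 7 of the members. The median log2 fold change was -1.54 over the members and 0.02 over all expressed genes. The 9 estimates were below 0 in the main fit and under each alternative run, scaling to mitochondrially encoded genes included.

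In the H3K9 trimethylation axis, Trim28 went from 175.1 and 169.89 to 28.41 and 16.8 FPKM. Every A-485 library lay below every control, and the fall was 13.9-fold from counts (log2 -3.80 ± 0.15 SE, edgeR adjusted p = 8.5e-09). The FPKM ratio was 7.63, with an effective length of 693 and 1002 bases in the A-485 libraries against 1192 and 1392 bases in the controls. Setdb1 went from 29.15 and 33.06 to 11.19 and 11.72 FPKM, a 3.6-fold fall (log2 -1.85 ± 0.14 SE, edgeR adjusted p = 7.95e-07). The ratio of Trim28 to Setdb1 was 2.54 and 1.43 by FPKM after A-485, against 6.01 and 5.14 in the controls.

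Of the G9a and GLP pair, Ehmt1 went from 40.77 and 32.82 to 13.27 and 14.59 FPKM, a 3.95-fold fall (log2 -1.98 ± 0.18 SE, edgeR adjusted p = 3.45e-06). Ehmt2 went from 2.87 and 3.93 to 2.37 and 1.31 FPKM, with 136 and 173 against 62 and 28 counts (log2 -1.37 ± 0.51 SE, edgeR adjusted p = 0.0542). It passed without the first A-485 library (log2 -2.15, edgeR adjusted p = 0.00175), whereas without the second the estimate was -0.84 (edgeR adjusted p = 0.187). Of the CoREST members, Kdm1a went from 21.83 and 30.46 to 6.36 and 9.32 FPKM (log2 -1.62 ± 0.21 SE, edgeR adjusted p = 6.83e-05), and Zmym2 from 32.77 and 45.22 to 14.87 and 22.61 FPKM (log2 -1.25 ± 0.16 SE, edgeR adjusted p = 5.81e-05). In each of these 3 called genes the groups did not overlap.

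Of the CAF-1 subunits, Chaf1a went from 27.57 and 34.08 to 12.99 and 16.9 FPKM (log2 -1.18 ± 0.13 SE, edgeR adjusted p = 1.87e-05). Chaf1b went from 11.13 and 10.81 to 4.78 and 3.66 FPKM (log2 -1.54 ± 0.31 SE, edgeR adjusted p = 0.00222). Rif1, the most abundant member, went from 399.14 and 391.9 to 281.41 and 298.65 FPKM, and its log2 fold change of -0.64 ± 0.08 SE (edgeR adjusted p = 5.57e-05) was the smallest of the 9 in size. Together the 9 members summed to 740.3 and 752.2 FPKM in the controls and 375.7 and 395.6 FPKM after A-485. Without Rif1 they summed to 341.2 and 360.3 against 94.24 and 96.91 FPKM.

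**Figure D3:**
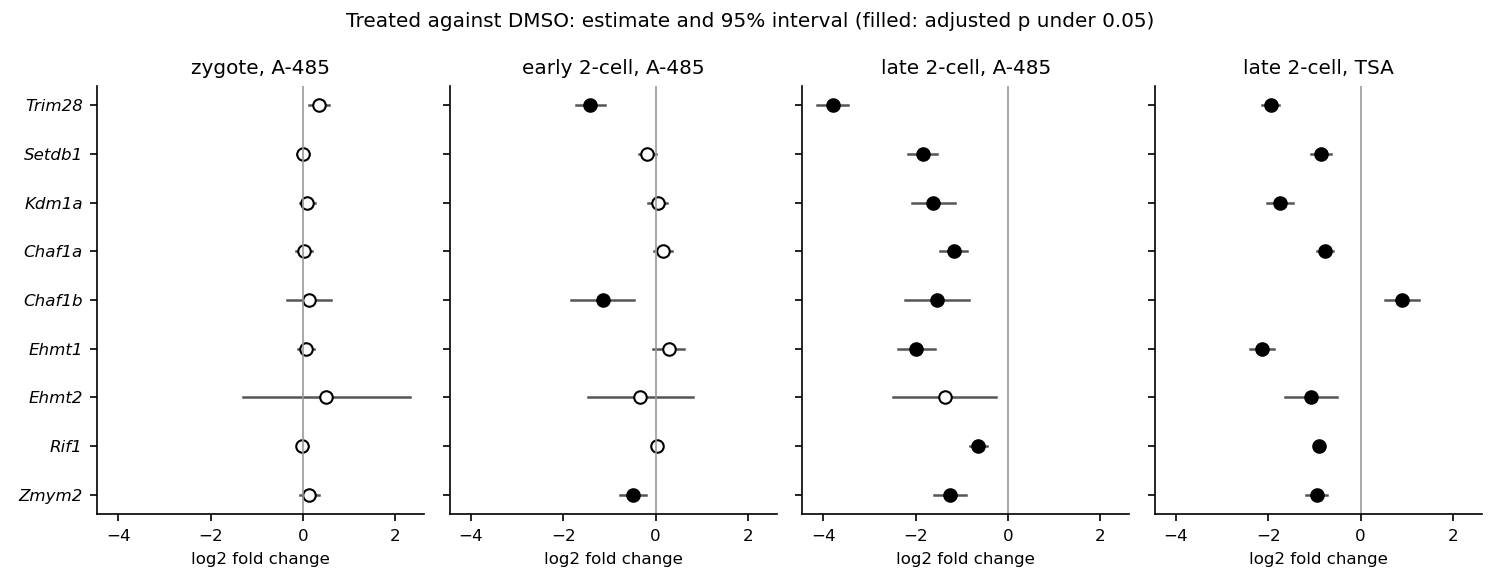
Log2 fold change of the 9 genes in treated against DMSO embryos, from edgeR on counts, after A-485 at the 3 stages and after TSA at the late 2-cell stage. Points are estimates over 2 libraries a group, bars are 95% intervals, and filled points passed at an adjusted p under 0.05, which are 0, 3, 8 and 9 members.

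Whether the A-485 effect itself differed between the 2-cell stages was tested as an interaction over 8 libraries. The effect was lower at late than at early 2-cell for 7 of the 9 members. Of 25141 genes, 2489 passed as lower and 2532 as higher, 20.0% in either direction. The difference of log2 fold changes was -2.31 ± 0.20 SE for Trim28 (edgeR adjusted p = 3.71e-09), -2.18 ± 0.24 SE for Ehmt1 (1.92e-07), and -1.58 for both Setdb1 (7.22e-08) and Kdm1a (2.5e-06). It was -1.25 for Chaf1a (edgeR adjusted p = 3.44e-06), -0.68 for Zmym2 (0.0217) and -0.59 for Rif1 (0.00016). Zmym2 did not pass without the second early 2-cell A-485 library (edgeR adjusted p = 0.0916), the second early 2-cell DMSO library (0.129) or the first late 2-cell A-485 library (0.0529). For Chaf1b the difference was -0.31 (95% interval -1.29 to 0.68) and for Ehmt2 -0.96 (-2.50 to 0.58), so that a difference of 2-fold lay within the interval of both.

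After TSA, which blocks the removal of acetyl groups where A-485 blocks their addition, late 2-cell embryos also had lower levels of most members. Trim28, Setdb1, Kdm1a, Chaf1a, Ehmt1, Ehmt2, Rif1 and Zmym2 fell, and Chaf1b rose. Of 23429 genes tested, 21.7% passed as higher, 21.4% passed as lower and 27.7% were called, beside 1, 8 and 4 of the members. The median log2 fold change was -0.95 over the members and -0.03 over all expressed genes.

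Trim28 went from 149.68 and 149.47 FPKM in the controls of this experiment to 57.7 and 47.56 FPKM, a 3.86-fold fall (log2 -1.95 ± 0.08 SE, edgeR adjusted p = 2.47e-08). Setdb1 went from 24.07 and 23.59 to 18.25 and 15.17 FPKM (log2 -0.86 ± 0.10 SE, edgeR adjusted p = 3.75e-05). Ehmt1 went from 41.08 and 42.53 to 15.51 and 19.65 FPKM (log2 -2.14 ± 0.12 SE from counts, edgeR adjusted p = 1.43e-07). From counts its fall was 4.41-fold against 3.86-fold for Trim28, but the FPKM ratios were in the other order, 2.38 for Ehmt1 and 2.84 for Trim28. In these 3 genes the groups were separated.

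Ehmt2 went from 6.37 and 5.2 to 3.51 and 2.6 FPKM (log2 -1.08 ± 0.26 SE, edgeR adjusted p = 0.00589), and did not pass with all 16 libraries in 1 fit (edgeR adjusted p = 0.212). Kdm1a went from 30.16 and 28.05 to 14.37 and 11.79 FPKM (log2 -1.74 ± 0.13 SE, edgeR adjusted p = 1.16e-06). Zmym2 (log2 -0.95), Rif1 (-0.89) and Chaf1a (-0.77) fell by less than 2-fold, Rif1 from 397.37 and 413.19 to 287.29 and 280.24 FPKM. Chaf1b alone stood higher, at 16.37 and 16.83 FPKM against 7.62 and 6.45 FPKM in DMSO (log2 0.90 ± 0.16 SE, edgeR adjusted p = 0.00117), and so it did under each alternative run. The Chaf1a to Chaf1b ratio of FPKM was 2.12 and 2.3 after TSA, against 5.75 and 7.64 in its controls.

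The effect of A-485 and that of TSA at the late 2-cell stage, each against its own controls, were compared in 1 fit. They differed for 4 of the 9 members, all with the lower effect after A-485. Of 26554 genes, 3380 passed as lower and 1218 as higher, 17.3% in either direction. The treatment windows differ, so this compares the 2 regimens and not the drugs at a matched time. The A-485 effect was lower by 2.54 ± 0.33 SE on the log2 scale for Chaf1b (edgeR adjusted p = 2.29e-05), by 1.96 ± 0.16 SE for Trim28 (1e-07), by 1.09 ± 0.17 SE for Setdb1 (0.000143) and by 0.52 ± 0.15 SE for Chaf1a (0.0205). The last did not pass without the first (edgeR adjusted p = 0.0621) or second (0.109) TSA library, the first (0.0999) or second (0.0937) DMSO library of the TSA experiment, or the first late 2-cell A-485 library (0.0673). For Kdm1a the difference was 0.01 (95% interval -0.49 to 0.52), for Ehmt1 0.05 (-0.38 to 0.48), for Rif1 0.15 (-0.06 to 0.35), for Zmym2 -0.41 (-0.80 to -0.02) and for Ehmt2 -0.40 (-1.59 to 0.79). The differences of Kdm1a, Ehmt1 and Rif1 changed sign with scaling to the mitochondrially encoded genes, and 7 members then passed.

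**Figure D4:**
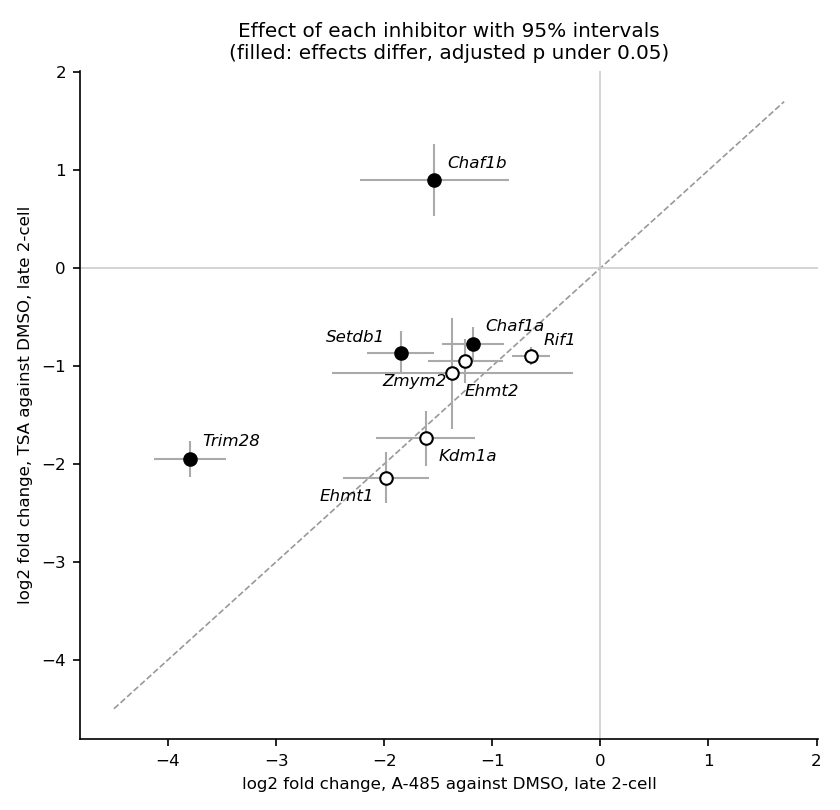
Log2 fold change after A-485 (x axis) and after TSA (y axis) in late 2-cell embryos, each against its own DMSO libraries, with 95% intervals and a dashed line of equal effects. Filled points are the 4 genes whose effects differed at an adjusted p under 0.05, and Chaf1b is the 1 gene above 0 on the TSA axis.

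Genes that work with the members were read from 7 lists of 49 genes, all of which were tested. In zygotes no partner gene passed (edgeR), as was so for the members, and at early 2-cell 15 passed as lower and 0 as higher after A-485, beside 10.2 and 1.77% of all genes tested. At late 2-cell, 33 passed as lower and 6 as higher after A-485, beside 20.4 and 17.0% of all genes, and 35 as lower and 1 as higher after TSA, beside 21.4 and 21.7%. The median log2 fold change of the 49 partners was -1.37 after A-485 and -0.94 after TSA at late 2-cell, beside -1.54 and -0.95 for the members.

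In the KRAB, TRIM28 and SETDB1 axis, 6 of 8 genes passed as lower and 2 as higher at late 2-cell after A-485, and 5 as lower and 1 as higher after TSA. Zfp809, a KRAB zinc finger gene whose product targets retroviral sequence, went from 68.58 and 61.41 to 3.27 and 2.92 FPKM after A-485 (log2 -4.79, edgeR adjusted p = 1.88e-08) and from 41.68 and 53.01 to 96.26 and 92.35 FPKM after TSA (log2 0.66, edgeR adjusted p = 0.000582). Sumo2, which encodes a modifier attached to TRIM28, fell after both, with log2 fold changes of -3.25 and -4.24. Cbx3, the gene of heterochromatin protein HP1 gamma, fell likewise (-1.96 and -4.02). Sumo2 and Cbx3 have processed copies in the genome with which reads may be shared, so their values are uncertain.

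The HUSH complex and MORC genes showed a like pattern, with 5 of 5 lower after A-485 and 4 of 5 after TSA, Morc2a at log2 -2.47 and -1.73, Fam208a at -1.81 and -2.0, and Morc3 at -1.87 and -1.82. Of 6 other H3K9 methyltransferases and G9a or GLP partners, 3 passed as lower and 1 as higher after A-485, and 4 as lower after TSA. Suv39h1, a methyltransferase of constitutive heterochromatin, fell at early 2-cell (log2 -3.06) and late 2-cell (-3.01) after A-485, and by less than 2-fold after TSA (-0.76). Setdb2 fell after A-485 (-1.31) and after TSA (-0.53), while Zfp644 fell after TSA (-1.38) and had a log2 difference of -0.19 after A-485 that did not pass. The H3K9 demethylases, which remove the mark these enzymes place, were lower as well, 5 of 6 after A-485 and 6 of 6 after TSA, with Kdm4b at log2 -3.32 and -0.92, Kdm4c at -2.76 and -2.53 and Kdm4a at -2.34 and -1.79.

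Of 8 CoREST genes, 3 passed as lower and 1 as higher after A-485, and 3 as lower after TSA, with Rcor2 at log2 -3.07 and -1.03, Hmg20b at -2.43 and -0.67, and Rcor1 at -1.60 and -1.33. Of 7 genes of the third CAF-1 subunit and H3-H4 chaperones, 5 and 6 passed as lower. The third subunit gene Rbbp4 went from 19.99 and 15.44 to 7.45 and 5.82 FPKM after A-485 (log2 -1.43) and from 23.59 and 28.85 to 11.32 and 8.75 FPKM after TSA (log2 -1.34). The chaperone genes Hira (-2.09 and -2.59) and Nasp (-2.28 and -2.14) fell too. In the list of PRC1.6 and other reported repressors, 6 of 9 passed as lower and 2 as higher after A-485, and 7 as lower after TSA. L3mbtl2 (-3.43 and -2.02) and Pcgf6 (-1.37 and -2.57) fell after both, whereas E2f6 rose after A-485 from 1.76 and 1.07 to 12.14 and 9.71 FPKM (log2 2.25) and did not pass after TSA (0.58, edgeR adjusted p = 0.203).

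The genes of the 2-cell program that these factors restrain in ES cells did not move in 1 direction. These are multicopy families whose reads the counting could split between copies, so single values are uncertain. In zygotes 2 of 8 passed as lower after A-485, Duxf3 and Usp17lc (log2 -2.83). At early 2-cell 7 of 8 passed as lower, beside 10.2% of all genes, and at late 2-cell 7 of 8, beside 20.4%, while 8 of 8 passed as higher after TSA, beside 21.7%. Zscan4f, Zscan4d and Zscan4c had log2 fold changes of -9.57, -8.03 and -7.08 after A-485 at early 2-cell, of -2.13, -2.35 and -1.68 at late 2-cell, and of 1.24, 0.52 and 1.6 after TSA. Zfp352 read 121.56 and 112.43 FPKM in early 2-cell controls and 1.28 and 1.52 FPKM after A-485 (log2 -6.46). At late 2-cell it read 19.34 and 13.53 FPKM after A-485, against 60.15 and 59.99 FPKM (log2 -2.22), and 127.24 and 119.49 FPKM after TSA, against 36.4 and 47.4 FPKM (log2 1.2). Duxf3 (Dux) read 7.23 and 6.81 FPKM in control zygotes and 0.22 and 0.27 FPKM after A-485 (log2 -4.67, edgeR adjusted p = 7.29e-06). Its early 2-cell values lay closer together, with 5.16 and 4.92 FPKM in DMSO and 4.88 and 3.57 FPKM after A-485. At late 2-cell Duxf3 read 6.04 and 9.56 FPKM after A-485, against 3.22 and 4.29 FPKM (log2 0.89, edgeR adjusted p = 0.0771), and 17.23 and 19.97 FPKM after TSA, against 5.69 and 3.31 FPKM (log2 1.65, edgeR adjusted p = 0.000165). Lower repressor transcripts at late 2-cell thus stood beside lower program genes in A-485 embryos and beside higher ones in TSA embryos.

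Open chromatin at the members' starts was read from the pooled peak lists, for which no replicate test is possible. A peak lay within 1 kb of an annotated start for 4 of 9 members in late 1-cell DMSO, 3 in late 1-cell A-485, 7 in early 2-cell DMSO and 6 in early 2-cell A-485 embryos. Of 12387 genes expressed in early 2-cell controls, 38.3, 37.1, 48.5 and 57.8% had such a peak. The lists held 10214, 7094, 27693 and 13712 peaks, so that they differ in how much was called.

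Trim28, Chaf1a and Chaf1b had a peak in all 4 lists. Over the Trim28 window printed above, the fold enrichment of the peak was 4.93 and 4.78 at late 1-cell in DMSO and A-485, and 6.28 and 5.04 at early 2-cell. Over the Chaf1b window it was 8.58 and 8.19, then 8.96 and 7.25. Over the Chaf1a window it was 4.67 and 4.45, then 4.5 in DMSO and 8.36 in A-485. Trim28 and Chaf1b were lower in RNA at early 2-cell after A-485, with a peak still listed over these windows. Within 1 kb of a start, however, each had 2 peaks in early 2-cell DMSO and 1 in A-485. The −log10 q of the strongest was 37.9 in DMSO and 12.1 in A-485 for Trim28, and 45.0 and 30.2 for Chaf1b. A change in accessibility was not tested.

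Setdb1 and Ehmt1 had promoter peaks at early 2-cell in both treatments and at late 1-cell in neither. Over the Setdb1 window the enrichment was 4.91-fold in DMSO and 6.38-fold in A-485, and over that of Ehmt1 6.12-fold and 5.82-fold. The strongest Ehmt1 peak within 1 kb of any annotated start was 10.95-fold in DMSO and 5.82-fold in A-485. For Setdb1 these values were 5.48-fold and 6.38-fold. Kdm1a had one in late 1-cell DMSO embryos alone, over its printed window (6.64-fold). Zmym2 (6.07-fold) and Ehmt2 (5.27-fold) had one in early 2-cell DMSO embryos alone, that of Ehmt2 lying away from both of its RefSeq windows. Rif1 had one in early 2-cell A-485 embryos alone (6.97-fold). A peak that is not listed may still be open chromatin under the authors' threshold.

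**Figure D5:**
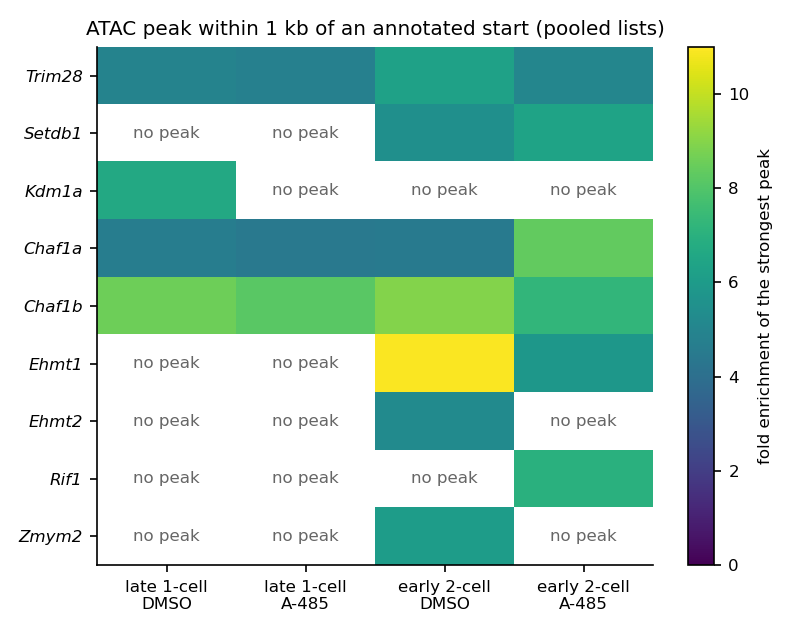
Fold enrichment of the strongest ATAC peak within 1 kb of an annotated start of each gene (color, from 0), in the 4 pooled lists, by stage and by treatment with DMSO or A-485. White cells hold no listed peak, and Trim28, Chaf1a and Chaf1b have one in all 4 lists.

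The genes most like each member in pattern were sought among 8860 genes, by Pearson's r of log2(FPKM + 0.1) over the 8 group means. The nearest to Trim28 were Rsl24d1 and Smpd4 (r = 0.995 for both), to Setdb1 Ubb (0.994) and Jarid2 (0.993), and to Rif1 Tor2a (0.998) and Tlk2 (0.995). Chaf1a was nearest to Ccdc58 (0.992) and Txndc9 (0.991), Ehmt1 to Pebp1 (0.991) and Rnf40 (0.989), and Kdm1a to Cdc40 (0.991) and Sap30 (0.987). Ehmt2 was nearest to Fkbp3 (0.991) and Gm12845 (0.989), Chaf1b to Ppie (0.978) and Fgf1 (0.972), and Zmym2 to Rrp36 (0.96) and Plekhg5 (0.959). These values describe 8 points for each gene, were not tested, and rest on the same libraries as the levels above. No member was among the 2 nearest of another.

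Reads could be shared with neighbors in some members. On the other strand, Trim28 overlaps Zbtb45, Setdb1 overlaps Cers2, Gm42578 and Gm37500, Kdm1a overlaps Luzp1, and Chaf1a overlaps Ubxn6. On the same strand, Kdm1a overlaps Gm12987, Chaf1b overlaps Gm49617, and Ehmt1 overlaps Gm38147 and Gm37139, so that stranded counting would not separate these. The strand setting of the counting is not given in the sources used here. RSEM's own posterior SD was at most 0.267% of the count for any member.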

How the data were processed

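Total RNA was made into SMART-Seq libraries. The authors removed the first 3 bases of read 2, trimmed adaptors with Trimmomatic 0.39, mapped reads to GRCm38 with STAR 2.7.8a and quantified genes with RSEM 1.3.1, versions per the submitters' processing notes. The deposited files give an expected count and an FPKM per gene and library, with effective lengths. For ATAC-seq the authors ran the ENCODE pipeline, and the deposited lists give each peak's fold enrichment and −log10 q, with 1 list per stage and treatment over both replicates. The annotation release and the strand setting of counting are not given in the sources used here.

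Expected counts were rounded, genes with under 10 counts over the libraries of a fit were left out, and groups were compared in edgeR 4.0.16 under R 4.3.3, by its quasi-likelihood test on TMM-scaled counts, adjusted by Benjamini-Hochberg over all genes tested. Each comparison was fitted on its own libraries, and differences of effects as interaction terms. Depth was between 13206163 and 32585987 expected counts per library. Replicates differed beyond counting noise in each group (chi-square statistics of 9.44 to 19.64 per degree of freedom). The edgeR test was tried on simulated data for a single comparison, early 2-cell A-485 against DMSO. The interactions, DESeq2, the other scalings and the replicate block were not tried in this way. Alternatives were DESeq2 1.42.0, other scalings, no filter, all 16 libraries, a replicate block and leaving out each library. Tables were handled in Python 3.11.15 with pandas 2.3.3.

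The members and lists were chosen with earlier results of these data known. All members were described. Of the other lists, up to 3 genes per set were named, those with the largest log2 fold change among genes called in a treatment comparison. The program genes Zfp352, Duxf3 and Usp17lc were named outside this rule, chosen after their values were seen. Promoter windows came from RefSeq. The CUT&RUN files were not analysed here.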

Additional observations from a re-analysis of the deposited data

Results flagged for a closer look

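The effect of A-485 differed between the late and the early 2-cell stage for 7 of the 9 repressors, by a test of the interaction over 8 libraries (edgeR). The difference of the log2 fold changes, late minus early, was -2.31 for Trim28, -2.18 for Ehmt1, -1.58 for Setdb1, -1.58 for Kdm1a, -1.25 for Chaf1a, -0.68 for Zmym2 and -0.59 for Rif1. The drug was present at the early stage and had been removed before the late one, and the libraries of these stages also differ in title form.

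The effects of A-485 and TSA at the late 2-cell stage, each against its own controls, differed for 4 of the 9 (edgeR interaction). The difference, A-485 minus TSA, was -2.54 for Chaf1b, -1.96 for Trim28, -1.09 for Setdb1 and -0.52 for Chaf1a. Chaf1b fell after A-485 and rose after TSA, whereas Trim28, Setdb1 and Chaf1a fell after both.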

How the results depend on the processing

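With 2 libraries a group, estimates of low genes such as Ehmt2 were imprecise. Of 576 member values under other tests, scalings, filters and designs, 533 kept direction and side of the threshold. In late 2-cell embryos all 9 members stayed below 0 after A-485 under each setting, Trim28 between -4.78 and -3.61.

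Counts of members that moved by over 1.5 times were these. In zygotes 1 member, Trim28, passed with scaling to mitochondrially encoded genes, without a filter and with the replicate block. After A-485 at early 2-cell 1 was called with DESeq2. With the mitochondrial scaling, 7 were called after TSA, 8 passed and 8 were called between zygote and early 2-cell, and 7 differed between inhibitors. Between the control groups 1, Setdb1, passed with DESeq2, without a filter, with all 16 libraries and with the replicate block. Leaving out single libraries gave between 0 and 1 in zygotes, 1 and 2 called at early 2-cell, 2 and 4 called between early and late controls, and 0 and 1 between the control groups. Smaller moves were also found. With mitochondrial scaling 9 members passed and 9 were called after A-485 at late 2-cell, 9 passed for the difference between stages, and Zmym2 did not pass at early 2-cell (edgeR adjusted p = 0.0879). Rif1 passed between inhibitors with DESeq2 (adjusted p = 0.0398), and Zmym2 did not pass for the difference between stages with total counts (edgeR adjusted p = 0.0661).

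Some signs reversed, among them that of Rif1 from zygote to early 2-cell, which passed in both directions. In zygotes Setdb1 was 0.001 with DESeq2, 0.001 with its size factors and 0.27 with mitochondrial scaling, and Rif1 0.253 with the last. Between zygote and early 2-cell, mitochondrial scaling gave -1.054 for Chaf1b and -1.003 for Rif1 (edgeR adjusted p = 9.27e-07). Between controls, all 16 libraries gave 0.004 for Trim28. For the difference between inhibitors, total counts gave -0.05 for Kdm1a and -0.007 for Ehmt1, and mitochondrial scaling -0.687 for Kdm1a, -0.646 for Ehmt1 and -0.538 for Rif1. Without single libraries, zygote values ranged from -0.016 to 0.012 (Setdb1), -0.089 to 0.142 (Chaf1a), -0.109 to 0.327 (Chaf1b), -1.682 to 1.332 (Ehmt2) and -0.078 to 0.048 (Rif1). Early 2-cell Kdm1a ranged from -0.006 to 0.093. From zygote to early 2-cell, Trim28 ranged from -0.279 to 0.037 and Zmym2 from -0.201 to 0.033. Between controls the ranges were -0.071 to 0.042 (Trim28), -0.098 to 0.052 (Rif1) and -0.003 to 0.191 (Zmym2), and between inhibitors -0.145 to 0.184 (Kdm1a), -0.031 to 0.141 (Ehmt1) and -1.171 to 0.131 (Ehmt2). The cause was not tested.

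For the difference between stages the median of all expressed genes was 0.217, and from -0.006 to 0.225 without single libraries, 0.132 with DESeq2, 0.344 with total counts and -0.825 with mitochondrial scaling. For that between inhibitors it was -0.103, and from -0.135 to -0.041, 0.033, -0.16 and -0.787 likewise. Mitochondrial scaling moved the median of all expressed genes to -0.962 after A-485 and -0.211 after TSA at late 2-cell, and -1.448 between zygote and early 2-cell, and the share of higher genes among those passing from 45.4 to 16.3% at late 2-cell after A-485, from 49.2 to 13.7% between zygote and early 2-cell, from 50.4 to 15.1% for the stage difference, from 26.5 to 5.84% between inhibitors and from 11.1 to 60.6% in zygotes. Total counts moved it from 50.3 to 66.9% after TSA, and DESeq2 from 26.5 to 38.2% between inhibitors and from 70.9 to 58.2% between controls.

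Same-numbered libraries correlated between -0.051 and 0.096 in their deviations. Whether they share more than a number is not stated in the sources used here. Under the replicate block Ehmt2 passed after A-485 at late 2-cell (log2 -1.46, edgeR adjusted p = 0.0207) and between zygote and early 2-cell (1.65, 0.0453), as did Zmym2 between early and late controls (0.39, 0.0281), Trim28 in zygotes (0.36, 0.011) and Setdb1 between controls (-0.41, 0.0345).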
